A study of Caenorhabditis elegans with 40 samples.

Results

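Sarcomere genes encode the filament proteins of muscle, and 10 of them were followed here across 5 genotypes of Caenorhabditis elegans with and without RNA interference (RNAi) against the splicing factor gene repo-1. They were taken by symbol from the 20956 genes of the deposited table, and all 10 passed the filter on low values that left 12327 genes for testing. They comprise the body wall myosin heavy chain genes unc-54 and myo-3, the pharynx myosin heavy chain genes myo-1 and myo-2, the paramyosin gene unc-15, the troponin I genes tni-1 and tni-3, the troponin T gene tnt-2, the tropomyosin gene lev-11 and the muscle actin gene act-4. The members were chosen with earlier results of these data known.

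A sarcomere shortens when thick filaments of myosin and paramyosin pull on thin filaments of actin, tropomyosin and troponin. In the striated body wall muscle of C. elegans, UNC-54 (myosin heavy chain B) makes up most of the thick filament, and MYO-3 (myosin heavy chain A) lies at its centre, where assembly starts. The pharynx, a feeding pump, builds its thick filaments from MYO-1 and MYO-2 instead. Both body wall myosins are also made in the egg-laying and enteric muscles and in the contractile gonadal sheath.

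Whole animals were sampled on day 1 of adulthood after feeding since hatching on bacteria for repo-1 RNAi or on empty vector. The mutants were eat-2(ad1116) (strain DA1116), which pumps slowly and is used as a model of dietary restriction, raga-1(ok386) (VC222), mutant for a Rag GTPase of the TOR pathway, clk-1(qm30) (MQ130), with a lesion in ubiquinone synthesis, and age-1(hx546) (TJ1052), with reduced insulin-like signalling; wild type was N2. There were 4 libraries for each of the 10 combinations of strain and treatment, numbered by batch, and each strain was a single allele. Whether the 4 libraries came from different cultures is not stated, so the p-values reflect only library-to-library spread, which may be technical. Libraries held 7430044 to 40777780 recovered reads, and the member with the fewest reads in any library was tni-1, with 80. The RNAi target repo-1 fell by 0.93 (eat-2), 1.07 (raga-1), 1.32 (clk-1), 1.12 (age-1) and 1.40 (wild type) on the log2 scale. RNA came from whole bodies, so fewer cells of a type and less RNA per cell cannot be told apart.

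Values are the authors' normalized read counts, that is, counts per gene after division by the library's size factor. Differences are log2 fold changes of the normalized count plus 1, with standard errors (SE) from a limma model fitted to all 40 libraries, and a gene is called where the adjusted p is under 0.05 over the 12327 genes. Group values are means ± SD with n = 4, and values of single libraries are given in batch order. On WBcel235 the genes lie on chromosome I (unc-54 at 14855901 to 14863482, myo-1 at 7258946 to 7267057, unc-15 at 7376604 to 7383197 and lev-11 at 14621169 to 14631094, all on the minus strand), on chromosome V (myo-3 at 12226817 to 12234343 and tni-3 at 16833638 to 16835128, both minus) and on chromosome X (myo-2 at 12468061 to 12475348 and act-4 at 4960621 to 4964413, both plus, and tni-1 at 11375887 to 11377470 and tnt-2 at 8721546 to 8723550, both minus). tni-3 overlaps phy-3 on the other strand, act-4 overlaps M03F4.6 on the other strand, and lev-11, myo-1 and myo-3 overlap genes known by sequence names. phy-3 held 5.20 to 47.7 normalized counts and M03F4.6 held 9.37 to 88.1, far fewer than tni-3 or act-4. The actin genes act-1 to act-4 are near-identical in sequence, so the value of act-4 alone is uncertain.

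Per kilobase of exon, in wild type on empty vector, act-4 had the highest level of the members, with 16674 normalized counts per kb. unc-54 followed with 8117 per kb, tnt-2 with 7549, lev-11 with 5481 and unc-15 with 5315. tni-3 had 959 per kb. The remaining 4 genes were lowest, with 381 per kb for myo-3, 333 for myo-2, 319 for myo-1 and 229 for tni-1. Per kb, therefore, unc-54 stood far above myo-3, while the 2 pharynx myosins were close to equal.

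**Figure D1:**
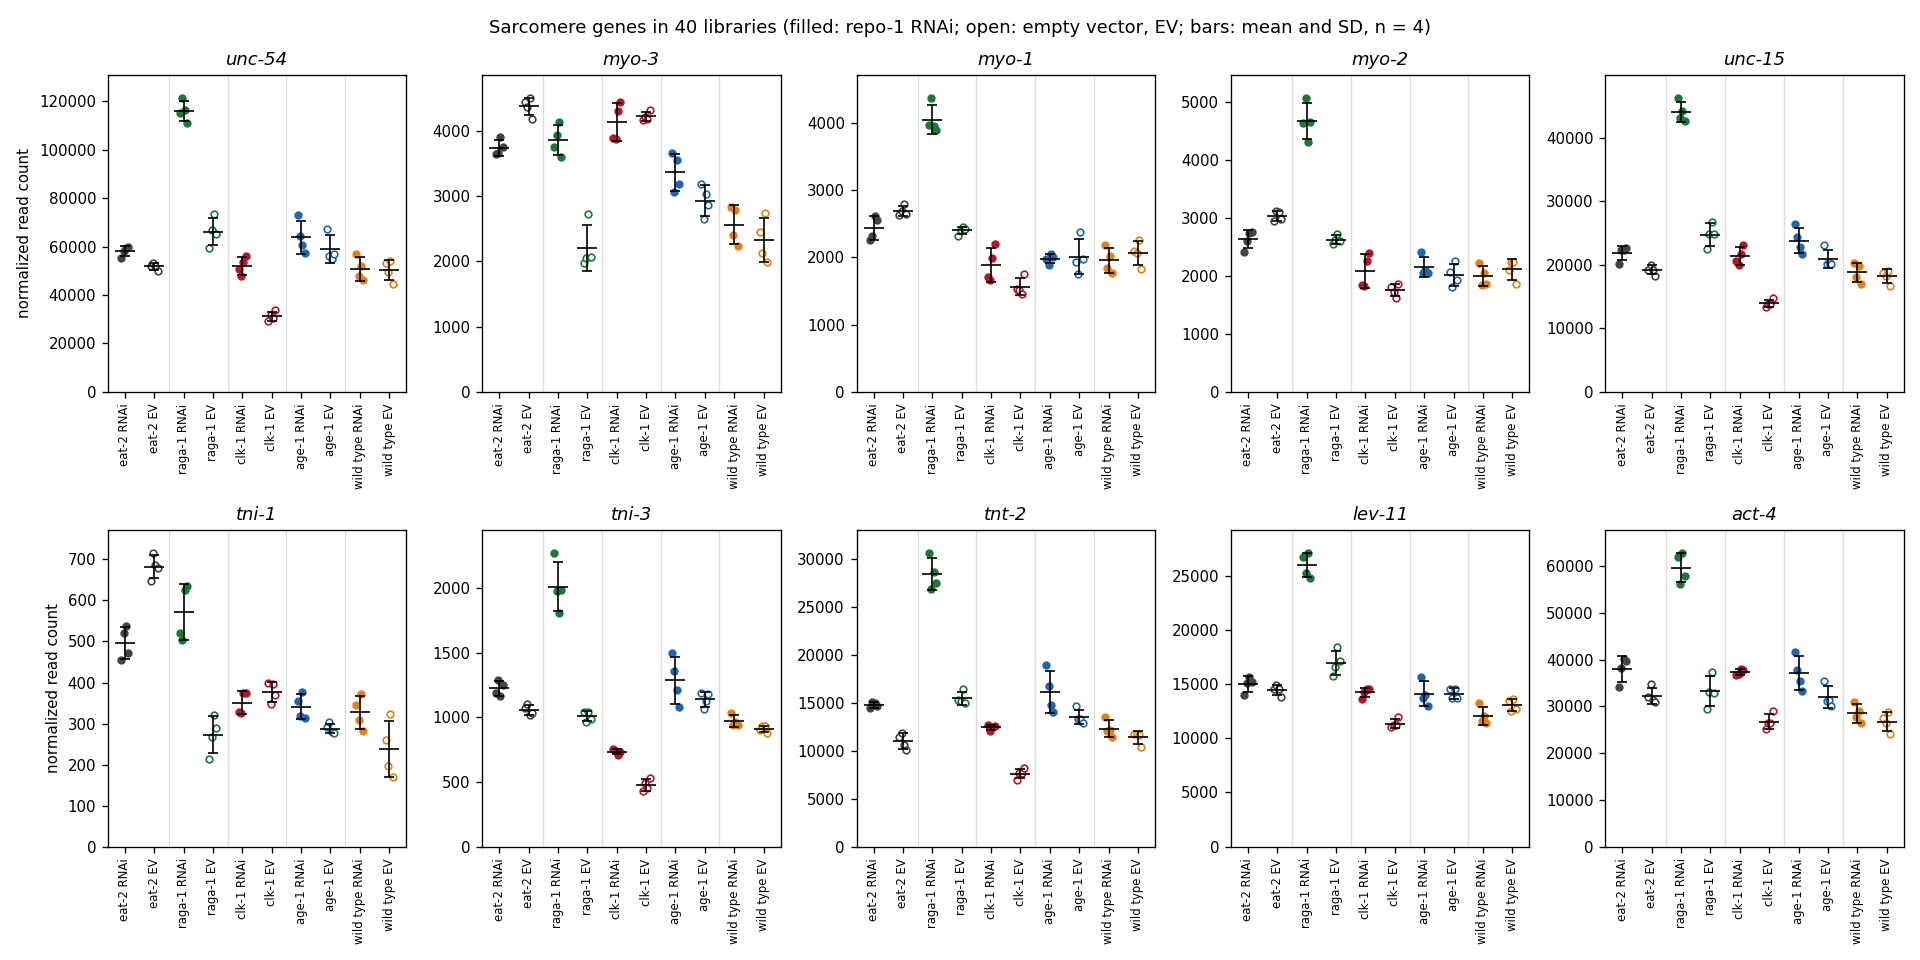
Normalized read counts (y axis, linear from 0, a scale per gene) of the 10 sarcomere genes in the 10 groups (x axis; filled points repo-1 RNAi, open points empty vector, EV), 1 point per library, with mean and SD (n = 4). In raga-1 RNAi libraries 8 of the 10 genes reach their highest group mean, while myo-3 and tni-1 are highest in eat-2 on empty vector.

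The widest spans over the 10 group means were 4.23-fold for tni-3, 3.73-fold for tnt-2 and 3.71-fold for unc-54, and the narrowest was 1.98-fold for myo-3. For 8 genes the highest mean was in raga-1 animals on repo-1 RNAi, and for 7 the lowest was in clk-1 animals on empty vector. The exceptions were myo-3, highest in eat-2 on empty vector and lowest in raga-1 on empty vector, tni-1, highest in eat-2 on empty vector and lowest in wild type on empty vector, and act-4, lowest in wild type on empty vector. In the order of unc-54 levels, raga-1 RNAi stood apart from the next group and clk-1 empty vector from the group above it, and the other 7 neighbouring pairs overlapped. For myo-3 all 9 neighbouring pairs overlapped. tni-3 had the most steps without overlap, 4 of 9.

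In raga-1 mutants on repo-1 RNAi, every one of the 10 sarcomere genes rose, by 1.53-fold to 2.10-fold over raga-1 on empty vector. Among all genes tested, 38.2% rose and 33.0% fell in this comparison, that is 4703 against 4063, and 3325 rose and 4378 fell after quantile normalization. unc-54, the main body wall myosin, had 115163, 121319.8, 116535 and 111078 normalized counts in raga-1 RNAi libraries, against 59401, 66832, 73302 and 65272 on empty vector. All RNAi libraries lay far above all empty vector libraries, a log2 fold change of 0.81 ± 0.07 (limma adjusted p = 7.21e-12). myo-3, the central body wall myosin, had 3759, 3938, 4141 and 3597 on RNAi, against 1982, 2055, 2727 and 2062 on empty vector, also without overlap (0.82 ± 0.09, limma adjusted p = 3.19e-10). The pharynx myosins moved by a like amount: myo-1 had 3961, 4361, 3956 and 3894 on RNAi, against 2315, 2408, 2445 and 2423 on empty vector (0.75 ± 0.08). myo-2 had 4634, 5062, 4305 and 4654 on RNAi, against 2545, 2619.9, 2721 and 2606 on empty vector (0.83 ± 0.08), and neither pharynx gene overlapped between the groups.

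The filament partners of myosin rose in raga-1 RNAi libraries as well. Paramyosin unc-15, which fills the core of the thick filament, had 46257, 43207, 44298 and 42739 on RNAi, against 22489, 24812, 26837 and 24869.7 on empty vector, a log2 fold change of 0.84 ± 0.06. Troponin T tnt-2, which anchors troponin to tropomyosin, had 30663, 26953, 28729 and 27536 on RNAi, against 15271, 15199, 16421 and 15027 on empty vector (0.88 ± 0.07). Both were clear of overlap, as were the 2 inhibitory troponin I genes. tni-3 had 2273, 1983, 1811 and 1983 on RNAi, against 1043, 967, 1044 and 991 on empty vector (0.99 ± 0.07). tni-1 had 522, 504, 624 and 635 on RNAi, against 213, 268, 322 and 289 on empty vector, the largest change of the members at 1.07 ± 0.13. The smallest was that of lev-11, the tropomyosin gene, with 26720.4, 25238, 27091 and 24811 on RNAi, against 15791, 16578, 18413 and 17121 on empty vector (0.61 ± 0.05). act-4 had 61917, 56217, 62812 and 57929.8 on RNAi, against 29552, 32989, 37427 and 32960.0 on empty vector, again with all RNAi libraries higher (0.85 ± 0.07). All 10 members were without overlap between the groups, as were 57.5% of genes tested, and the largest limma adjusted p among them was 3.31e-09, that of tni-1.

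The median member changed by 0.83 in raga-1 on RNAi, where the median of all genes was 0.10, and under quantile normalization the members' median was 0.81 and that of all genes -0.07. Relative to the median gene, members rose by 0.51 (lev-11) to 0.97 (tni-1). Together the 10 genes held 1.40% ± 0.03 of reads in raga-1 RNAi libraries, 0.835% ± 0.08 in raga-1 empty vector libraries and 0.684% ± 0.05 in wild type empty vector libraries (SD, n = 4 each). All 10 rose within batches 1 and 2 and within batches 3 and 4, and also without the RNAi library of batch 3, whose library name bears another date.

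Markers of several other tissues moved in the same raga-1 libraries, where 38.2% of all genes rose and 33.0% fell. A list of 9 hypodermis genes was also drawn up, and its values are not given here. Of 14 neuron genes 12 rose and none fell, with a median of 0.71, and their summed level was 11338 to 12825 in RNAi libraries and 7448 to 13332 on empty vector. Of 10 intestine genes 8 rose, of 7 pharynx genes outside muscle 6 rose, of 8 sperm genes all rose (median 3.18), and all 3 pharynx troponin genes (tni-4, tnt-4 and tnc-2) rose with a median of 0.73. Of 13 oocyte and germline genes none rose and 12 fell, with a median of -0.75, and their summed level was 72949 to 81959.8 in RNAi libraries and 128923 to 141098 on empty vector. Apart from the sperm gene spe-38 no marker of these lists averaged 0 in any group, and their part in the rise of the sarcomere genes was not tested.

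On empty vector, raga-1 animals already had higher levels of 7 of the 10 genes than wild type, and none was lower. Among all genes, 19.7% were called higher and 26.4% lower. The largest differences were those of unc-15, with 24752 ± 1778 in raga-1 and 18199.5 ± 1091 in wild type (0.44 ± 0.06, limma adjusted p = 3.45e-07), and tnt-2, with 15479 ± 636 in raga-1 and 11421 ± 659 in wild type (0.44 ± 0.07, limma adjusted p = 1.16e-06). unc-54 was higher by 0.39 ± 0.07, lev-11 by 0.38 ± 0.05, myo-2 by 0.32 ± 0.08, act-4 by 0.31 ± 0.07 and myo-1 by 0.22 ± 0.08. The 3 genes not called were myo-3, with 2206 ± 349 in raga-1 and 2325 ± 339 in wild type, tni-1, with 273 ± 45.5 in raga-1 and 237 ± 68.2 in wild type, and tni-3, with 1011 ± 38.6 in raga-1 and 911 ± 25.7 in wild type. In 8 of the 10 genes the groups did not overlap, against 39.3% of genes tested. The call of myo-1 was lost without batch 2 (0.22, limma adjusted p = 0.0543) or without batch 4 (0.16, limma adjusted p = 0.13), and tni-1 was called without batch 1 (0.40, limma adjusted p = 0.0344). tni-3 was called higher under quantile normalization (0.19, limma adjusted p = 0.0221) and in edgeR on recovered reads (0.18, adjusted p = 0.0237).

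In clk-1 mutants on empty vector the sarcomere genes split. Compared with wild type, 7 of the 10 fell and 2 rose, where 30.4% of all genes fell and 27.8% rose. unc-54 had 29200.4, 31760.1, 30483 and 33680.1 normalized counts in clk-1, against 53204, 49601, 53971 and 44658 in wild type. Every clk-1 library was below every wild type library, and the log2 fold change was -0.68 ± 0.07 (limma adjusted p = 5.66e-10). myo-3 went the other way, with 4172, 4211, 4177 and 4319 in clk-1, against 2454, 2121, 2739 and 1986 in wild type, and the clk-1 libraries were all higher (0.87 ± 0.09, limma adjusted p = 9.63e-11). The 2 genes that share body wall thick filaments thus changed in opposite directions, each without overlap between the groups.

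The troponin I genes split in the same way in clk-1 on empty vector. tni-3 had 428, 492, 450.3 and 534 in clk-1, against 905, 933, 930.2 and 877 in wild type, the largest fall of the members at -0.94 ± 0.07 (limma adjusted p = 7.68e-14). tni-1 had 398, 347, 395 and 370.3 in clk-1, against 259, 197, 323 and 169.8 in wild type, and rose by 0.71 ± 0.13 (limma adjusted p = 9.82e-06). Neither pair of groups overlapped, although the wild type libraries of tni-1 were widely spread. tnt-2 fell with tni-3 (6988, 7683, 7680.4 and 8197 in clk-1, against 11786, 11812, 11647 and 10439 in wild type, -0.58 ± 0.07), and so did unc-15 (13375, 13808, 13803 and 14749.8 in clk-1, against 18766, 18327, 19076 and 16630.0 in wild type, -0.38 ± 0.06). Both pharynx myosins fell. myo-1 had 1532, 1518, 1454 and 1756 in clk-1, against 2098, 2069, 2254 and 1826 in wild type (-0.40 ± 0.08), and myo-2 had 1814, 1717, 1624 and 1856 in clk-1, against 2104, 2247, 2235 and 1861 in wild type (-0.27 ± 0.08). lev-11 fell least, with 11044, 11209, 11215 and 11945 in clk-1, against 13449, 12484, 13615 and 12698 in wild type (-0.20 ± 0.05), and act-4 was not called, with 26741 ± 1549 in clk-1 and 26696 ± 2048 in wild type. In 9 of the 10 genes the groups did not overlap, against 57.7% of genes tested. Under quantile normalization the falls of unc-15 (limma adjusted p = 0.115), myo-2 (0.06) and lev-11 (0.992) lost their calls and act-4 was called higher (0.37 on the log2 scale), while myo-2 also lost its call without batch 3 (-0.20, limma adjusted p = 0.0607).

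With repo-1 RNAi in clk-1, 8 of the 10 genes rose and none fell, where 23.8% of all genes rose and 22.5% fell. unc-54 had 50896, 47713, 53623 and 56065 on RNAi, against 29200.4, 31760.1, 30483 and 33680.1 on empty vector, so that the RNAi libraries were all higher (0.73 ± 0.07, limma adjusted p = 3.77e-10) and their mean of 52074 lay near the 50358 of wild type on empty vector. tnt-2 had 12659.6, 12097, 12523 and 12609 on RNAi, against 6988, 7683, 7680.4 and 8197 on empty vector (0.71 ± 0.07, limma adjusted p = 6.38e-11). unc-15 had 20690.1, 19978, 21785 and 23163 on RNAi, against 13375, 13808, 13803 and 14749.8 on empty vector (0.62 ± 0.06, limma adjusted p = 3.77e-10). These 3 genes rose without overlap, in a comparison that uses the same clk-1 empty vector libraries as the one with wild type. tni-3 also rose, with 754, 740.3, 711 and 733 on RNAi, against 428, 492, 450.3 and 534 on empty vector (0.63 ± 0.07), and its RNAi mean stayed below that of every group but clk-1 on empty vector. act-4 had 36669, 36924, 37936 and 37881 on RNAi, against 25269.8, 26363, 26404 and 28926 on empty vector (0.48 ± 0.07), and lev-11 had 13610.0, 14294, 14515 and 14566 on RNAi, against 11044, 11209, 11215 and 11945 on empty vector (0.33 ± 0.05).

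The pharynx myosins of clk-1 rose under RNAi as well. myo-1 had 1701, 1663, 1984 and 2191 on RNAi, against 1532, 1518, 1454 and 1756 on empty vector (0.26 ± 0.08, limma adjusted p = 0.00639). myo-2 had 1847, 1829, 2250.4 and 2402 on RNAi, against 1814, 1717, 1624 and 1856 on empty vector (0.24 ± 0.08, limma adjusted p = 0.0102). In both genes the groups overlapped, and the RNAi libraries of batches 3 and 4 were higher than those of batches 1 and 2: within batches 1 and 2 alone the changes were 0.14 for myo-1 and 0.06 for myo-2, and within batches 3 and 4 they were 0.38 for myo-1 and 0.42 for myo-2. myo-3 and tni-1 were not called under RNAi in clk-1. myo-3 had 3892, 3876, 4307 and 4448 on RNAi, against 4172, 4211, 4177 and 4319 on empty vector (-0.03 ± 0.09, limma adjusted p = 0.783), and tni-1 had 328, 326, 376 and 373 on RNAi, against 398, 347, 395 and 370.3 on empty vector (-0.11 ± 0.13, limma adjusted p = 0.508). In 6 of the 10 genes the groups did not overlap, against 42.6% of genes tested. The call of myo-1 was lost without batch 3 (0.20, limma adjusted p = 0.0735), that of myo-2 without batch 3 (0.16) or batch 4 (0.20), and that of act-4 under quantile normalization (0.08, limma adjusted p = 0.19).

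**Figure D2:**
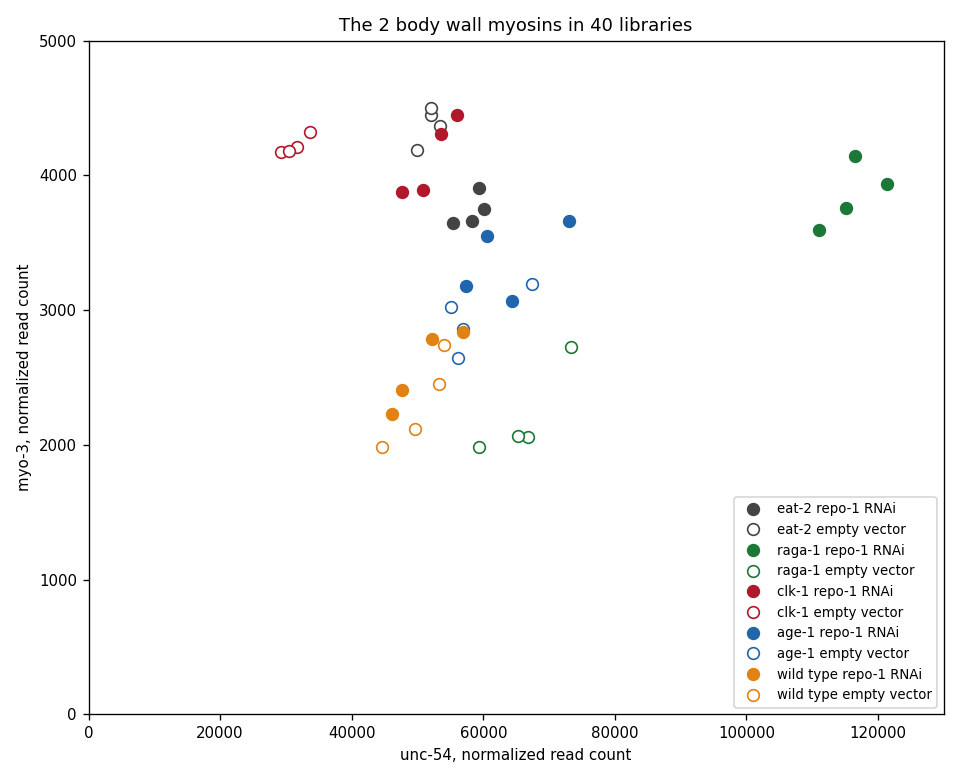
The body wall myosins in 40 libraries, with unc-54 on the x axis and myo-3 on the y axis (normalized read counts, linear axes), colours for genotypes, filled points repo-1 RNAi and open points empty vector. clk-1 empty vector libraries lie at the upper left (unc-54 31281, myo-3 4219.7 on average) and raga-1 RNAi libraries at the far right (unc-54 116024, myo-3 3859).

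eat-2 mutants on empty vector had higher levels of 7 of the 10 genes than wild type and none lower, where 27.2% of all genes were higher and 29.8% lower. tni-1 had 648, 715, 686 and 679.9 in eat-2, against 259, 197, 323 and 169.8 in wild type, a 2.95-fold rise that was the largest of any member in any comparison (1.56 ± 0.13, limma adjusted p = 1.17e-12). myo-3 had 4445, 4367, 4499 and 4187 in eat-2, against 2454, 2121, 2739 and 1986 in wild type (0.92 ± 0.09, limma adjusted p = 4.29e-11). Both were far apart between the groups, whereas unc-54 had 52108, 53349.8, 52119 and 49956 in eat-2, against 53204, 49601, 53971 and 44658 in wild type, which overlapped (0.05 ± 0.07, limma adjusted p = 0.611). The pharynx myosins rose without overlap. myo-2 had 2945, 3122, 3102 and 2976 in eat-2, against 2104, 2247, 2235 and 1861 in wild type (0.53 ± 0.08), and myo-1 had 2632, 2686, 2793 and 2638 in eat-2, against 2098, 2069, 2254 and 1826 in wild type (0.39 ± 0.08). Smaller rises were called for act-4 (32320.2 ± 1721 in eat-2 and 26696 ± 2048 in wild type, 0.28 ± 0.07), tni-3 (1057 ± 36.8 in eat-2 and 911 ± 25.7 in wild type, 0.21 ± 0.07) and lev-11 (14432 ± 479.6 in eat-2 and 13062 ± 554 in wild type, 0.14 ± 0.05). unc-15 (19209.8 ± 719 in eat-2 and 18199.5 ± 1091 in wild type, 0.08 ± 0.06) and tnt-2 (11002 ± 819 in eat-2 and 11421 ± 659 in wild type, -0.06 ± 0.07) were not called. In 7 genes the groups did not overlap, against 58.3% of genes tested. Without batch 2 the calls of tni-3 (0.20, limma adjusted p = 0.0574) and lev-11 (0.11, limma adjusted p = 0.187) were lost, and quantile normalization called unc-54 (0.15) and unc-15 (0.25) higher.

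Under repo-1 RNAi the eat-2 libraries moved in both directions, with 4 genes up and 3 down, where 16.2% of all genes rose and 21.4% fell. Over all genes, 1996 rose and 2632 fell in limma, 2712 rose and 2356 fell after quantile normalization, and 1707 rose and 3525 fell in edgeR on recovered reads. tnt-2 rose the most, with 14449, 15075, 14954 and 14723 on RNAi, against 11409.7, 11914, 10613 and 10072 on empty vector, all RNAi libraries being higher (0.43 ± 0.07, limma adjusted p = 3.03e-06). act-4 had 34113, 38158, 40204 and 39814 on RNAi, against 32016, 34819.8, 31482 and 30962 on empty vector, with overlap (0.23 ± 0.07). tni-3 had 1189, 1293, 1169 and 1248 on RNAi, against 1069.8, 1103, 1021 and 1034 on empty vector (0.21 ± 0.07), and unc-15 had 20150.4, 22309.8, 22309 and 22653 on RNAi, against 19274, 20031, 19257 and 18278 on empty vector (0.19 ± 0.06). tni-1, myo-3 and myo-2 fell, and their empty vector libraries are those already set against wild type. tni-1 had 455, 521, 537 and 471 on RNAi, against 648, 715, 686 and 679.9 on empty vector (-0.46 ± 0.13, limma adjusted p = 0.00402). myo-3 had 3644, 3659, 3904 and 3751 on RNAi, against 4445, 4367, 4499 and 4187 on empty vector (-0.23 ± 0.09), and myo-2 had 2419, 2604, 2731 and 2763 on RNAi, against 2945, 3122, 3102 and 2976 on empty vector (-0.21 ± 0.08). All 3 were lower in every RNAi library than in any empty vector library. myo-1, with 2259.7, 2316, 2611 and 2549 on RNAi, against 2632, 2686, 2793 and 2638 on empty vector (-0.15 ± 0.08, limma adjusted p = 0.148), unc-54 (55373, 58327, 59277 and 60056 on RNAi, against 52108, 53349.8, 52119 and 49956 on empty vector, 0.17 ± 0.07, limma adjusted p = 0.071) and lev-11 (14999 ± 743 on RNAi and 14432 ± 479.6 on empty vector, 0.05 ± 0.05) were not called. In 8 genes the groups did not overlap, against 40.3% of genes tested. Leaving out batch 2, 3 or 4 in turn left 3 genes called each time, and leaving out batch 1 left 6. tnt-2 and tni-1 kept their calls without any single batch, and under quantile normalization unc-15 and act-4 lost theirs while unc-54 gained one (0.16, limma adjusted p = 0.0452).

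In wild type animals repo-1 RNAi changed 1 member, tni-1, where 10.1% of all genes rose and 12.9% fell. tni-1 had 344, 309, 372 and 282 on RNAi, against 259, 197, 323 and 169.8 on empty vector, with overlapping groups (0.50 ± 0.13, limma adjusted p = 0.00364). It was higher in each of the 4 batches, but the call was lost without batch 2 (0.45, limma adjusted p = 0.052) and within batches 3 and 4 (0.47, limma adjusted p = 0.125). Quantile normalization added calls for unc-15 (0.12), tnt-2 (0.21) and act-4 (0.14), all higher. The means of the abundant genes were close. unc-54 had 56858, 47698, 52175 and 46164 on RNAi, against 53204, 49601, 53971 and 44658 on empty vector (0.01 ± 0.07), and unc-15 had 18812 ± 1547 on RNAi and 18199.5 ± 1091 on empty vector (0.05 ± 0.06). The pharynx myosins were slightly lower on RNAi and not called, with 1953 ± 187 on RNAi and 2062 ± 177 on empty vector for myo-1 and 1994 ± 177 on RNAi and 2112 ± 179 on empty vector for myo-2. myo-3 had 2837, 2405, 2783 and 2229 on RNAi, against 2454, 2121, 2739 and 1986 on empty vector (0.15 ± 0.09, limma adjusted p = 0.235). tnt-2 (12307 ± 875 on RNAi and 11421 ± 659 on empty vector), act-4 (28527 ± 1969 on RNAi and 26696 ± 2048 on empty vector) and lev-11 (12056 ± 838 on RNAi and 13062 ± 554 on empty vector, -0.12 ± 0.05) were not called either. tni-3, with 971 ± 46 on RNAi and 911 ± 25.7 on empty vector (0.09 ± 0.07), was the only member whose groups did not overlap, against 32.4% of genes tested.

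age-1 mutants on empty vector differed from wild type in 6 members, all higher, where 4.76% of all genes were higher and 3.72% lower. The largest change was that of myo-3, with 3190.2, 2642, 3026 and 2863 in age-1, against 2454, 2121, 2739 and 1986 in wild type, with overlap (0.34 ± 0.09, limma adjusted p = 0.00832). tni-3 had 1193, 1067, 1128 and 1181 in age-1, against 905, 933, 930.2 and 877 in wild type, and all age-1 libraries were higher (0.32 ± 0.07, limma adjusted p = 0.00169). act-4 (31998 ± 2308 in age-1 and 26696 ± 2048 in wild type, 0.26 ± 0.07), tnt-2 (13551 ± 761 in age-1 and 11421 ± 659 in wild type, 0.25 ± 0.07), unc-54 (58909 ± 5767 in age-1 and 50358 ± 4251 in wild type, 0.23 ± 0.07) and unc-15 (20952 ± 1435 in age-1 and 18199.5 ± 1091 in wild type, 0.20 ± 0.06) were also higher. The pharynx myosins were not called, at -0.04 for myo-1 (2009 ± 258 in age-1 and 2062 ± 177 in wild type) and -0.07 for myo-2 (2017 ± 191 in age-1 and 2112 ± 179 in wild type). Nor were tni-1 (288 ± 12 in age-1 and 237 ± 68.2 in wild type) and lev-11 (14132 ± 471 in age-1 and 13062 ± 554 in wild type). In 6 genes the groups did not overlap, against 14.9% of genes tested. Leaving out batch 1 left 3 calls, batch 2 left 1, batch 3 left 6 and batch 4 left 1, and tni-3 was called each time. unc-54 lost its call under quantile normalization (0.13, limma adjusted p = 0.228).

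repo-1 RNAi in age-1 raised 3 members, tnt-2, act-4 and unc-15, where 10.6% of all genes rose and 10.2% fell. tnt-2 had 18929, 16750.5, 14783 and 14042 on RNAi, against 14669, 13282, 13288 and 12964 on empty vector (0.24 ± 0.07, limma adjusted p = 0.0076). act-4 had 41716, 37810.2, 35474 and 33203 on RNAi, against 35361, 31166, 31353 and 30113 on empty vector (0.21 ± 0.07), and unc-15 had 26373, 24355, 22898 and 21673 on RNAi, against 23092, 20179.8, 20445 and 20089 on empty vector (0.18 ± 0.06). In these 3 genes the groups overlapped, and the RNAi libraries of batches 1 and 2 were higher than those of batches 3 and 4. Without batch 2 no member was called (limma adjusted p = 0.1 for tnt-2), and none within batches 3 and 4. unc-54 had 72978, 64307, 60573 and 57386 on RNAi, against 67479, 56130.1, 55052 and 56974 on empty vector (0.11 ± 0.07), and myo-3 had 3663, 3065, 3547 and 3179 on RNAi, against 3190.2, 2642, 3026 and 2863 on empty vector (0.20 ± 0.09). Of these, myo-3 was called with the batches as a replicate block (0.20, limma adjusted p = 0.0421), which made 4 calls in place of 3. myo-1 (1976 ± 66 on RNAi and 2009 ± 258 on empty vector), myo-2 (2152 ± 173 on RNAi and 2017 ± 191 on empty vector), lev-11 (14106 ± 1149 on RNAi and 14132 ± 471 on empty vector), tni-3 (1289 ± 182 on RNAi and 1142 ± 57.2 on empty vector) and tni-1 (341 ± 30.3 on RNAi and 288 ± 12 on empty vector) were not called. Groups did not overlap in 1 member, tni-1, against 17.4% of genes tested.

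Averaged over the 5 genotypes, the RNAi effect was a called rise in all 10 members, from 0.15 for myo-1 to 0.47 for tnt-2, where 31.4% of all genes rose and 34.2% fell. This average held unlike effects. The difference between the RNAi effect in a mutant and that in wild type (the interaction) was called in 10 of 10 members for raga-1, all positive, where 28.4% of all genes were called positive and 27.2% negative. Over all genes limma called 3499 positive and 3353 negative, and 2242 positive and 3530 negative after quantile normalization. Those interactions ran from 0.57 for tni-1 to 0.91 for myo-2, and that of tni-1 was lost without batch 1 (0.47, limma adjusted p = 0.0689). For clk-1, 8 members were called positive and 1 negative, where 13.7% of all genes were positive and 9.9% negative. That balance over all genes was 1688 positive and 1220 negative calls in limma, and the other way round in edgeR on recovered reads, with 1476 positive and 1850 negative. unc-54 had the largest, 0.73 ± 0.10 (limma adjusted p = 1.90e-06), tni-1 the negative one, -0.61 ± 0.18 (limma adjusted p = 0.0115), and myo-3 was not called (-0.18 ± 0.12). The clk-1 interactions of myo-1 and myo-2 were each lost without batch 2, 3 or 4, that of tni-1 without batch 2 (-0.56, limma adjusted p = 0.0838), and that of act-4 under quantile normalization (limma adjusted p = 0.551). For eat-2, 3 members were called, where 3.98% of all genes were positive and 6.73% negative. Over all genes these were 490 positive and 830 negative calls in limma, and edgeR made 305 positive and 1238 negative ones. The members called in limma were tni-1 (-0.96 ± 0.18, limma adjusted p = 0.000274), myo-3 (-0.37 ± 0.12, limma adjusted p = 0.0441) and tnt-2 (0.32 ± 0.09, limma adjusted p = 0.0183), of which tni-1 alone kept its call without any single batch. For age-1 limma called no member, and of all genes it called 0.00811% positive and 0.0% negative. No member had an unadjusted p under 0.05 there, and edgeR called none as well. The mutant comparisons, the RNAi effect in wild type and the interactions share the wild type empty vector libraries, so their values stand side by side and are not independent.

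**Figure D3:**
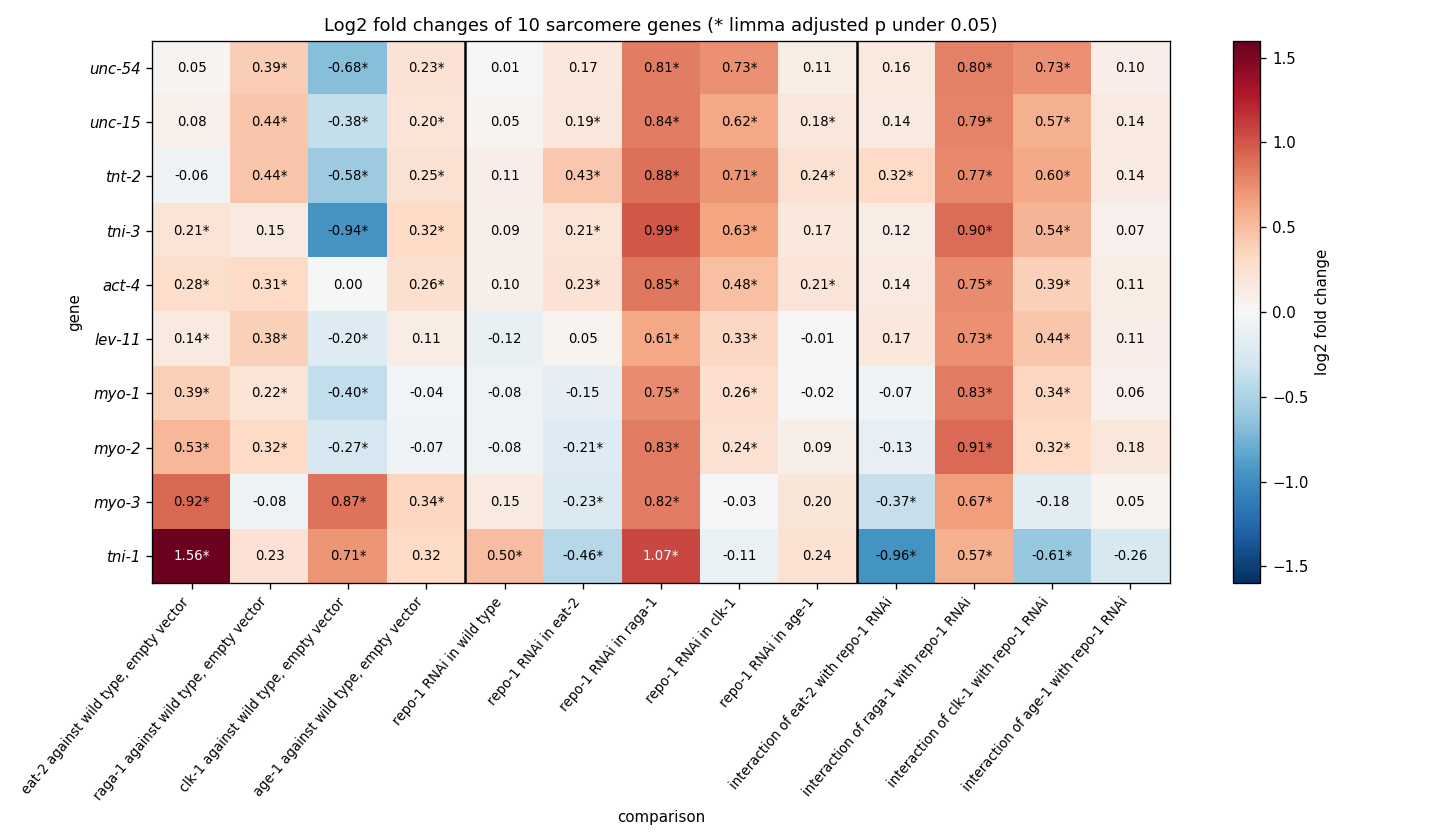
Log2 fold changes (colour and number; red higher, blue lower) of the 10 sarcomere genes (rows) in 13 comparisons (columns): mutant against wild type on empty vector, the RNAi effect within each genotype, and interactions; stars mark a limma adjusted p under 0.05. The raga-1 RNAi column is red throughout, while myo-3 and tni-1 take the opposite colour to unc-54 and tni-3 in clk-1 against wild type.

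Genes of the same filament departed from a common movement, as differences of log2 values within each library show. These differences are not adjusted for gene length and do not depend on a library's size factor, apart from the pseudocount. myo-3 minus unc-54 averaged -2.89 ± 0.07 on the log2 scale in clk-1 on empty vector and -4.44 ± 0.11 in wild type on empty vector (SD, n = 4 each), which is a 7.40-fold excess of unc-54 counts in clk-1 and a 21.8-fold excess in wild type. By library, myo-3 minus unc-54 was -2.81, -2.91, -2.87 and -2.96 in clk-1, against -4.44, -4.55, -4.30 and -4.49 in wild type. In eat-2 on empty vector it was -3.55, -3.61, -3.53 and -3.58, also above every wild type library. In raga-1 on empty vector it was -4.90, -5.02, -4.75 and -4.98, below every wild type library, and in age-1 it was -4.40, -4.41, -4.18 and -4.31, which overlapped wild type. Under repo-1 RNAi it was -3.71, -3.62, -3.64 and -3.66 in clk-1, below every clk-1 empty vector library. In eat-2 on RNAi it was -3.93, -3.99, -3.92 and -4.0, again below every empty vector library of that genotype. In raga-1 on RNAi it was -4.94, -4.94, -4.81 and -4.95, overlapping the raga-1 empty vector libraries, and both groups averaged -4.91. The age-1 and wild type groups overlapped between RNAi and empty vector, with shifts of 0.08 in age-1 and 0.14 in wild type.

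The troponin I genes were likewise closest to each other in clk-1 and eat-2. On empty vector tni-1 minus tni-3 averaged -0.33 ± 0.22 in clk-1, -0.63 ± 0.06 in eat-2, -1.90 ± 0.26 in raga-1, -1.98 ± 0.12 in age-1 and -1.98 ± 0.39 in wild type (log2, SD, n = 4 each). The clk-1 and eat-2 libraries did not overlap wild type, and those of raga-1 and age-1 did. On RNAi it averaged -1.07 ± 0.14 in clk-1 and -1.30 ± 0.13 in eat-2, each below all empty vector libraries of its genotype. In raga-1 the RNAi average was -1.82 ± 0.28, in age-1 -1.91 ± 0.21 and in wild type -1.57 ± 0.15, each overlapping its empty vector group. The pairs myo-3 with unc-54 and tni-1 with tni-3 were chosen after the values were seen, so these are descriptions without a test. Within the thick filament, unc-54 and unc-15 kept closer proportions, with unc-54 above unc-15 by 1.17 ± 0.04 in clk-1 on empty vector and by 1.47 ± 0.04 in wild type, and by 1.42 to 1.49 in the other mutants on empty vector.

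**Figure D4:**
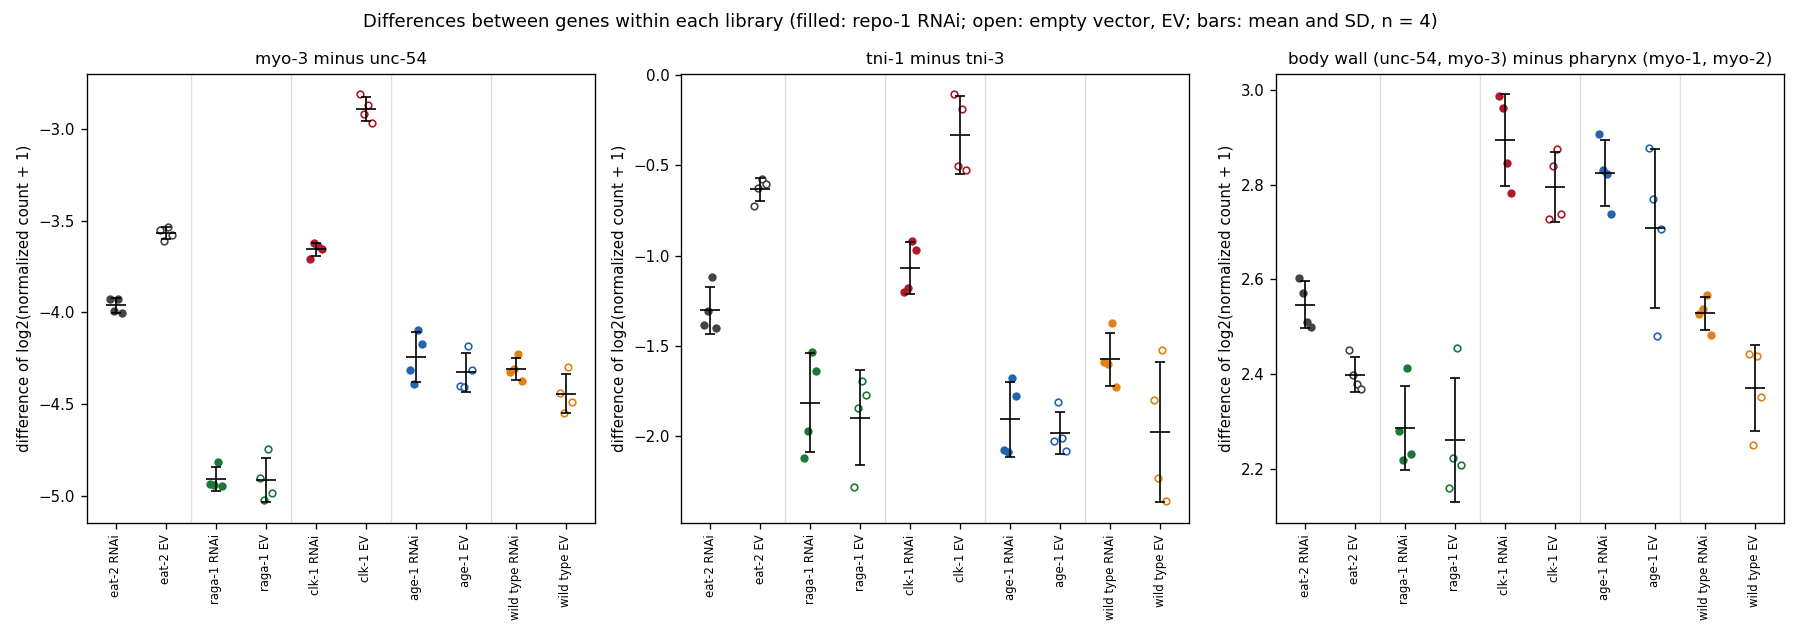
Differences of log2(normalized count + 1) between genes of the same library (y axis) in the 10 groups (x axis; filled points repo-1 RNAi, open points empty vector, EV), with mean and SD (n = 4). myo-3 minus unc-54 and tni-1 minus tni-3 are least negative in clk-1 on empty vector (-2.89 and -0.33), followed by eat-2 on empty vector, and the body wall minus pharynx difference spans 2.26 to 2.89.

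The mean of the body wall myosins (unc-54, myo-3) against that of the pharynx myosins (myo-1, myo-2) combined unlike parts. On empty vector the difference of mean log2 levels was 2.80 ± 0.07 in clk-1, 2.71 ± 0.17 in age-1, 2.26 ± 0.13 in raga-1, 2.40 ± 0.04 in eat-2 and 2.37 ± 0.09 in wild type (SD, n = 4 each). clk-1 and age-1 libraries lay above all wild type libraries, and eat-2 and raga-1 libraries overlapped them. On RNAi it was 2.89 ± 0.10 in clk-1, 2.83 ± 0.07 in age-1, 2.29 ± 0.09 in raga-1, 2.55 ± 0.05 in eat-2 and 2.53 ± 0.03 in wild type. RNAi libraries were above all empty vector libraries in eat-2, with a shift of 0.15, and in wild type, with a shift of 0.16, and overlapped them in clk-1 (0.10), age-1 (0.12) and raga-1 (0.02). In clk-1 against wild type opposite shifts were combined, as unc-54 minus myo-2 differed by -0.42 and myo-3 minus myo-1 by 1.27. The same held in eat-2 against wild type, with -0.48 for unc-54 minus myo-2 and 0.54 for myo-3 minus myo-1. The pharynx myosins kept the closest ratio to each other, with group means of myo-1 minus myo-2 between -0.21 and -0.01.

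Other sarcomere genes, listed by function with earlier results of these data known, were counted in the same comparisons. Of all genes, 38.2% rose and 33.0% fell in raga-1 on RNAi. In clk-1 the shares were 27.8% and 30.4% against wild type, and 23.8% and 22.5% on RNAi. In eat-2 they were 27.2% and 29.8% against wild type, and 16.2% and 21.4% on RNAi. Of 7 other thick filament and titin-like genes, 6 rose and 1 fell in raga-1 on RNAi, with a median of 0.76. The myosin light chain genes mlc-1 (0.99 ± 0.07), mlc-3 (0.92 ± 0.06) and mlc-2 (0.77 ± 0.06) rose, as did unc-89, the obscurin of the M-line (0.76 ± 0.07). In clk-1 against wild type 6 of the 7 fell and 1 rose, with a median of -0.30. mlc-1 (-0.62 ± 0.07) and the twitchin gene unc-22 (-0.53 ± 0.06) fell with unc-54, while the titin gene ttn-1 rose (0.40 ± 0.12), as did myo-3. In clk-1 on RNAi 5 of 7 rose and none fell, with mlc-1 at 0.84 and ttn-1 not called at -0.25. In eat-2 against wild type 4 of 7 rose and none fell, led by ttn-1 at 1.12, and in eat-2 on RNAi 3 rose and 2 fell, with ttn-1 at -0.43.

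Of 12 other thin filament genes, 10 rose and 2 fell in raga-1 on RNAi (median 0.78), led by the troponin T gene tnt-3 (0.98), the calponin-related cpn-3 (0.94) and the troponin T gene mup-2 (0.90). In clk-1 against wild type none rose and 7 fell (median -0.19), among them mup-2 (-0.47) and the troponin I gene unc-27 (-0.40). In clk-1 on RNAi 8 rose and 1 fell (median 0.53), with cpn-3 at 0.85 and unc-27 at 0.67. In eat-2 on RNAi 6 rose and none fell, and in age-1 on RNAi 8 rose and none fell, where 3 of the 10 members rose. These 12 genes were counted in the main fit only. Without batch 2 no member was called in age-1 on RNAi. Of all genes, 10.6% rose and 10.2% fell in age-1 on RNAi. The shares in the other comparisons are those given with the thick filament genes. The 3 pharynx troponin genes tni-4, tnt-4 and tnc-2 all rose in raga-1 on RNAi and in eat-2 against wild type (tnt-4 0.81, tnc-2 0.44, tni-4 0.41), and none of them was called in clk-1, on RNAi or against wild type.

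The attachment structures of the sarcomere, dense bodies and M-lines, anchor filaments to the membrane. The shares of all genes called are those given with the thick filament genes above. Of 16 such genes, 15 rose and 1 fell in raga-1 on RNAi (median 0.74), including the vinculin gene deb-1 (0.93) and alp-1 (0.90). In eat-2 against wild type all 16 rose (median 0.49), deb-1 by 1.00 and unc-82 by 0.86, where the median of all genes was 0.00. In eat-2 on RNAi none rose and 6 fell, with unc-82 at -0.39 and deb-1 at -0.29. In clk-1 against wild type 8 rose, among them deb-1 (0.45), and 3 fell, among them dim-1 (-0.50). Of 11 excitation and calcium genes, 10 rose in raga-1 on RNAi and none fell, among them the calcium channel gene egl-19 (0.55), which was also higher in eat-2 (1.15) and clk-1 (0.47) than in wild type.

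Transcription factor genes of muscle and pharynx were higher in eat-2 and clk-1, as myo-3 and tni-1 were. Of all genes, 27.2% were called higher in eat-2 and 27.8% in clk-1 than in wild type. On RNAi 21.4% of all genes fell in eat-2, 22.5% fell in clk-1 and 38.2% rose in raga-1. In eat-2 against wild type all 7 rose (median 1.63), including hlh-1, the MyoD homologue, at 1.63 ± 0.23, the serum response factor homologue unc-120 at 1.42 ± 0.15, and the pharynx factors pha-4 (1.91 ± 0.16) and ceh-22 (2.19 ± 0.53). In clk-1 against wild type all 7 rose (median 1.26), hlh-1 by 1.26 and unc-120 by 0.80. repo-1 RNAi lowered all 7 in eat-2 (median -1.04) and all 7 in clk-1 (median -1.31), with hlh-1 at -0.88 in eat-2 and -1.71 in clk-1. In raga-1 on RNAi 5 rose, and in age-1 and wild type on RNAi none was called. Their summed level was 667 to 756 in eat-2 RNAi libraries and 1414 to 1471 in eat-2 empty vector libraries, 447 to 506 in clk-1 RNAi and 1089.6 to 1126 in clk-1 empty vector libraries, and 431 to 538 in wild type on empty vector.

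Genes listed for embryos, which adult hermaphrodites carry in their uterus, moved in the same eat-2 and clk-1 libraries. Against wild type, 27.2% of all genes rose and 29.8% fell in eat-2, and 27.8% rose and 30.4% fell in clk-1. On RNAi, 16.2% of all genes rose and 21.4% fell in eat-2, and 23.8% rose and 22.5% fell in clk-1. Of 8 tested, 6 rose and 1 fell in eat-2 against wild type (median 1.42), and 5 rose and 1 fell in clk-1 against wild type (median 1.32). On RNAi 1 rose and 4 fell in eat-2 (median -0.59), and none rose and 6 fell in clk-1 (median -1.02). Their summed level was 4209 to 4552 in eat-2 RNAi and 3997 to 4212 in eat-2 empty vector libraries, 2326 to 3389.9 in clk-1 RNAi and 4185 to 4456 in clk-1 empty vector libraries, and 2861 to 3181 in wild type on empty vector. Of 8 sperm genes all rose in clk-1 on RNAi (median 4.11) and 6 in eat-2 on RNAi (median 1.64), and also 6 in wild type and 5 in age-1. On RNAi 10.1% of all genes rose in wild type and 10.6% in age-1. Of 14 neuron genes 12 were higher in eat-2 and 7 in clk-1 than in wild type, and of 13 oocyte and germline genes 13 were lower in eat-2 and 10 in clk-1. Among the embryo genes nhr-25 was higher by 2.25 in eat-2 and by 1.48 in clk-1. Gonadal sheath genes, whose cells make both body wall myosins, summed to 1785 to 2301 in clk-1 RNAi and 6597 to 7253 in clk-1 empty vector libraries, and to 2729 to 3059 in raga-1 RNAi and 7253 to 7946 in raga-1 empty vector libraries. Of 7 sheath genes 2 rose and 4 fell in clk-1 on RNAi, and 5 rose and 2 (tbh-1 and inx-8) fell in raga-1 on RNAi. The sum thus fell in raga-1 on RNAi although most sheath genes rose, so it does not stand for the list. In raga-1 on RNAi 38.2% of all genes rose and 33.0% fell. No marker of the embryo or sheath lists averaged 0 in any of these groups, and the part of these other tissues in the values of myo-3, tni-1 and the transcription factors was not tested.

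Likeness was measured as Pearson's r of log2 values over the 40 libraries, among 5119 named genes with a mean of at least 100. The libraries come from the same 10 groups and 4 batches, so r describes this set only. For the mean of the pharynx myosins, the most alike were the sodium-calcium exchanger gene ncx-2 (r = 0.982, and 0.954 over the 36 libraries other than raga-1 RNAi), clik-2 (0.973), the calcium pump gene mca-2 (0.951), ncx-1 (0.942) and the alpha-actinin gene atn-1 (0.935). For the mean of the body wall myosins they were alp-1 (0.952, and 0.904 over 36 libraries), act-4 (0.936), pat-12 (0.932), the cofilin gene unc-60 (0.913) and the galectin gene lec-2 (0.902). Because the body wall pair moved apart, each was also taken alone, after the values were seen. For unc-54 the most alike were zig-12 (0.985), unc-22 (0.982), tnt-2 (0.979), unc-15 (0.979) and mlc-1 (0.971), of which tnt-2 and unc-15 are members. For myo-3 the highest r were lower, with cor-1 at 0.886, gyg-1 at 0.873, frm-2 at 0.872, crtc-1 at 0.869 and twk-31 at 0.867, none of which was among the 5 for unc-54.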

How the data were processed

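Whole-body RNA of day 1 adults was measured by stranded mRNA sequencing in 40 libraries of 10 groups. Per the submitters' processing notes, STAR, Salmon 0.14.2, FastQC 0.11.8, MultiQC and DESeq2 were used with the build WBcel235; the order of steps and the strand setting are not given in the sources used here. The deposited values are a signal, gene counts that the authors divided by 1 size factor per library. Reads were recovered from the smallest steps of the values (tolerance 0.01 of a read), which gave the depth of each library; in 2 libraries the step was near 1. All recovered values were whole within that tolerance (100.0% in each library), and edgeR on these reads called 4349 genes up and 4415 down in raga-1 on RNAi, where limma called 4703 up and 4063 down.

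For each library log2(value + 1) was taken for genes with a mean of at least 10, and all 40 libraries were fitted with limma 3.58.1 (R 4.3.3) by genotype and treatment, with Benjamini-Hochberg adjustment within each of 14 comparisons. The fit was run on simulated data with a fixed spread and few changed genes in a single comparison. That setting is unlike these data, so it does not vouch for the calls here. Alternatives were pseudocounts of 0.5 and 10, no filter or a mean of at least 100, quantile normalization, edgeR 4.0.16 on the recovered reads, leaving out each batch or 1 library whose name bears another date, fits within batches 1 and 2 and within batches 3 and 4, and the batch as a replicate block. The labels name the replicate number a batch, so the numbers could pair the samples, but the main fit did not use them. Over all groups the median correlation of residuals was 0.0312 for same-numbered libraries and -0.0137 for others. Same-numbered RNAi and empty vector libraries correlated at 0.109 to 0.256 in eat-2, 0.0646 to 0.205 in age-1 and 0.0423 to 0.118 in raga-1. The values took both signs in clk-1 (-0.0297 to 0.114) and wild type (-0.0627 to 0.138). Between mutants and wild type, all given empty vector, they took both signs as well. The batch 3 library also had the highest myo-3 minus unc-54 in all groups outside clk-1. Some spread was thus shared by number, more in some pairs of groups than in others.

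All 10 members are named in every comparison; of each other list up to 4 called genes with the largest change could be named, and the 5 genes most like each myosin pair among named genes with a mean of at least 100. The members and lists were chosen with earlier results of these data known.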

Additional observations from a re-analysis of the deposited data

Results flagged for a closer look

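Of 110 groups of 4 libraries examined for 1 library far from the others, 7 stood out, where chance gives about 5.5. In age-1 on empty vector the highest library of unc-54 had 67479 normalized counts and the highest of unc-15 had 23092, both in batch 1. In age-1 on repo-1 RNAi the highest library of myo-2 had 2409.8, also in batch 1. In raga-1 the highest myo-1 library on RNAi had 4361, and the highest myo-3 library on empty vector had 2727. The lowest unc-15 library of eat-2 on RNAi had 20150.4, and the lowest tnt-2 library of wild type on empty vector had 10439.

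The RNAi effect in a mutant differed from that in wild type, by limma's test of the interaction, in 22 of 40 tests. In raga-1 the differences on the log2 scale were 0.80 for unc-54, 0.67 for myo-3, 0.83 for myo-1, 0.91 for myo-2, 0.79 for unc-15, 0.57 for tni-1, 0.90 for tni-3, 0.77 for tnt-2, 0.73 for lev-11 and 0.75 for act-4. In clk-1 they were 0.73 for unc-54, 0.34 for myo-1, 0.32 for myo-2, 0.57 for unc-15, -0.61 for tni-1, 0.54 for tni-3, 0.60 for tnt-2, 0.44 for lev-11 and 0.39 for act-4. In eat-2 they were -0.37 for myo-3, -0.96 for tni-1 and 0.32 for tnt-2.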

How the results depend on the processing

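Over 14 alternative settings, 1798 of 1960 results kept their direction and their side of the threshold, 108 lost a call, 22 gained one and 32 changed sign. The rise of all 10 members in raga-1 on RNAi kept every call under all settings. The count of members called changed by over 1.5 times as follows. For RNAi in wild type it was 4 with quantile normalization, 0 within batches 3 and 4 and 0 to 2 without a single batch. For RNAi in eat-2 it was 4 within batches 1 and 2 and 3 to 7 without a single batch or library. For RNAi in age-1 it was 0 within batches 3 and 4 and 0 to 4 without a single batch. For age-1 against wild type it was 2 within either pair of batches and 1 to 6 without a single batch. For the eat-2 interaction it was 1 within batches 1 and 2 and 1 to 3 without a single batch. The replicate block changed 1 call, that of myo-3 in age-1 on RNAi (adjusted p = 0.0421 in limma), making 4 calls in place of 3. Quantile normalization moved the share of called genes that rose to 43.2% in raga-1 on RNAi from 53.7%, to 53.5% in eat-2 on RNAi from 43.1%, and to 38.8% in the raga-1 interaction from 51.1%. edgeR moved it to 32.6% in eat-2 on RNAi, and the share of positive calls to 19.8% in the eat-2 interaction from 37.1% and to 44.4% in the clk-1 interaction from 58.0%. The cause of these changes was not tested. The fits within batches also had fewer libraries.

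The body wall minus pharynx difference depends on the genes that stand for each muscle. With unc-54 and myo-2, with myo-3 and myo-1 and with troponins, it changed by 0.38, -0.081 and 0.20 in eat-2 on RNAi, and by 0.49, -0.30 and 0.34 in clk-1 on RNAi. The same 3 choices gave -0.48, 0.54 and -0.068 in eat-2 against wild type and -0.42, 1.27 and 0.25 in clk-1 against wild type. In raga-1 against wild type the first 2 gave 0.078 and -0.30. The main difference in clk-1 on RNAi was 0.19 within batches 1 and 2 and 0.0068 within batches 3 and 4, and in age-1 against wild type it was 0.48 and 0.20.

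The one called result to change sign was act-4 in the clk-1 interaction, called in the main setting and -0.063 with quantile normalization (adjusted p = 0.551 in limma). The other values that changed sign were all uncalled. With quantile normalization they were -0.010 for lev-11 in eat-2 on RNAi, 0.011 for lev-11 in age-1 on RNAi, 0.056 for tnt-2 in eat-2 against wild type, -0.033 for unc-15 in the eat-2 interaction and -0.054 for act-4 in the eat-2 interaction. Within batches 1 and 2 they were -0.019 for lev-11 in eat-2 on RNAi, 0.066 for myo-1 in age-1 on RNAi, 0.055 for lev-11 in age-1 on RNAi, -0.062 for act-4 in clk-1 against wild type and -0.0081 for act-4 in the eat-2 interaction. Within batches 3 and 4 they were -0.00050 for unc-54 in wild type on RNAi, 0.043 for myo-3 in clk-1 on RNAi, -0.013 for myo-2 in age-1 on RNAi, -0.010 for tni-3 in age-1 on RNAi, 0.024 for myo-3 in raga-1 against wild type, 0.093 for myo-1 in age-1 against wild type, 0.035 for myo-2 in age-1 against wild type, 0.030 for myo-1 in the eat-2 interaction and -0.088 for tni-3 in the age-1 interaction. Without a single batch or library the values ran over -0.019 to 0.032 for unc-54 in wild type on RNAi, -0.055 to 0.050 for myo-1 in age-1 on RNAi, -0.043 to 0.020 for lev-11 in age-1 on RNAi, -0.12 to 0.00084 for myo-3 in raga-1 against wild type and -0.084 to 0.048 for act-4 in clk-1 against wild type. They ran over -0.095 to 0.022 for myo-1 in age-1 against wild type, -0.11 to 0.014 for myo-2 in age-1 against wild type, -0.11 to 0.0050 for myo-1 in the eat-2 interaction, -0.0055 to 0.10 for myo-1 in the age-1 interaction and -0.013 to 0.17 for tni-3 in the age-1 interaction.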

Other observations

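A few muscle genes went against the common rise in raga-1 animals on repo-1 RNAi. unc-45, which encodes a chaperone that folds myosin heads and which the germline also expresses, fell (-0.56 ± 0.04 on the log2 scale). The actin gene act-2 (-0.41 ± 0.06), the tropomodulin gene unc-94 (-0.23 ± 0.06) and the integrin gene pat-3 (-0.17 ± 0.03) fell too, and these 4 were the members of the muscle lists that fell in that comparison. They were singled out after their values were seen, and the near identity of the actin genes makes the value of act-2 uncertain.

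The octopamine enzyme gene tbh-1, listed with the gonadal sheath, fell under repo-1 RNAi in eat-2, raga-1 and clk-1. Its log2 fold changes were -1.89 ± 0.19 (eat-2), -2.87 ± 0.19 (raga-1) and -3.77 ± 0.19 (clk-1). Most sheath genes rose in raga-1 on RNAi, so tbh-1 does not stand for the list. Its values in wild type and age-1 are not given here. The sheath transcription factor gene lim-7 was higher in eat-2 (1.07 ± 0.13) and clk-1 (0.78 ± 0.13) than in wild type on empty vector.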
